A study of Rattus norvegicus with 15 samples.

Results

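The liver is the main site where amino acids that are not needed for protein synthesis are broken down, and the enzymes of these routes were followed in liver RNA from controls, from rats with cirrhosis and from cirrhotic rats that received eplerenone. The set holds 44 genes in 9 branches (phenylalanine and tyrosine, tryptophan, histidine, lysine, branched-chain amino acids, proline, glycine and serine, cysteine, and transamination and glutamate), and its members were found by their gene symbol among the 32623 genes listed. A row was found for 42 of the 44 symbols, all protein coding. Prodh, which oxidises proline, is listed under its older symbol Prodh1 and is described beside the others without being counted, and Aldh4a1 had no row under that symbol.

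The branches often start with a transamination or a ring-opening oxidation. The carbon skeletons then enter the citric acid cycle, glucose synthesis or ketone body synthesis, while the nitrogen is passed on to urea synthesis. Several first enzymes, such as Tat, Tdo2 and Sds, are textbook targets of glucocorticoids, glucagon and dietary protein in the liver. Most of the set is expressed chiefly in hepatocytes. Branched-chain amino acids are an exception, because their first transamination takes place mainly outside the liver and their later steps run in hepatocytes.

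Liver RNA came from male Wistar rats. Control rats (4 samples used here) received neither agent. CCl4 rats (5 samples), which the study calls cirrhosis, inhaled the hepatocyte toxin CCl4 and drank water with phenobarbital at 0.35 g/L for 12 weeks. CCl4+eplerenone rats (5 samples) had the same CCl4 and phenobarbital and were also fed eplerenone, a blocker of the mineralocorticoid receptor, at 100 mg/kg from week 8 on. Phenobarbital, which itself induces liver enzymes, was thus given in both CCl4 groups and not in control, and its part cannot be told apart from that of CCl4. The livers were removed 7 to 10 days past the last CCl4 exposure, and the study chose the rats for sequencing by how well cirrhosis or the treatment had taken, so they are not a random sample of the cohort. Control replicate 1, which the study set aside after a principal component analysis, was not analysed here.

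The libraries held 16157491 to 21574767 counted reads. Levels are given as FPM, counts scaled to the size of the library (edgeR's cpm with TMM factors), so that they compare rats and not genes, and 3 counts stood for 0.121 to 0.191 FPM. All 42 members passed the filter on low counts together with 14417 genes in all. The hepatocyte markers Alb, Ttr, Apoa1 and others were abundant in every library, with a summed level of 181129 to 210284 FPM in control, 141352 to 197999 FPM in CCl4 and 110020 to 201252 FPM in CCl4+eplerenone. Markers of stellate cells summed to 131 to 227, 260 to 530 and 371 to 518 FPM in the 3 groups, and markers of cholangiocytes to 14 to 22, 41 to 134 and 44 to 85 FPM. Against control, 1 of 8 hepatocyte markers (Hnf4a), 0 of 8 stellate cell markers and 0 of 5 cholangiocyte markers were lower in CCl4, while 0, 6 and 5 of them were higher. Of the lymphocyte markers 4 of 6 were higher, of the macrophage markers 1 of 7 (Cd163) was lower, and of the 5 endothelial markers 1 (Vwf) was higher and 1 (Kdr) lower. The part of these shifts in the levels of the enzymes was not tested. In whole liver, fewer hepatocytes and less RNA per hepatocyte cannot be told apart.

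In CCl4 livers, 9 of the 42 enzymes were lower than in control and none was higher (edgeR quasi-likelihood test, Benjamini-Hochberg adjusted p below 0.05), a share of 21.4%, where 20.2% of all genes tested were called, 6.71% lower and 13.4% higher. The 9 were Tdo2, Afmid, Kmo and Kynu of the tryptophan branch, Hal and Uroc1 of the histidine branch, Mccc1 and Aldh6a1 of the branched-chain branch, and Cdo1 of the cysteine branch. An unadjusted p below 0.05 was found for 17 members, and for 37.1% of all genes. The fold change was below 0 for 36 of the 42, and its median was -0.45 on the log2 scale, against -0.01 over all genes tested. The hepatocyte markers, which are not members, had a median of -0.57, with 6 of 8 below 0 and 5 of 8 at an unadjusted p below 0.05 (edgeR). Scaling to total counts moved the median of all genes by 0.29, after which the members' median was -0.16, the sign of Hgd, Fah, Bckdhb and Pcca turned, and 5 members were lower and 1 (Sdsl) higher, where 2.54% of all genes were lower and 23.7% were called in all. The count depended on which rats entered: leaving out 1 rat at a time gave 2 to 13 calls, with 2 without control replicate 3, 3 without CCl4 replicate 3, 4 without CCl4 replicate 4, control replicate 2 or control replicate 5, and 5 without CCl4 replicate 1 or control replicate 4. Over the fits that leave out 1 rat, 9.26% to 32.1% of all genes were called. Without both CCl4 replicate 5 and CCl4+eplerenone replicate 3, so with 4 rats per group, 15 members were lower and 1 was higher, or 38.1%, where 34.2% of all genes were called, 14.9% lower and 19.3% higher.

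**Figure D1:**
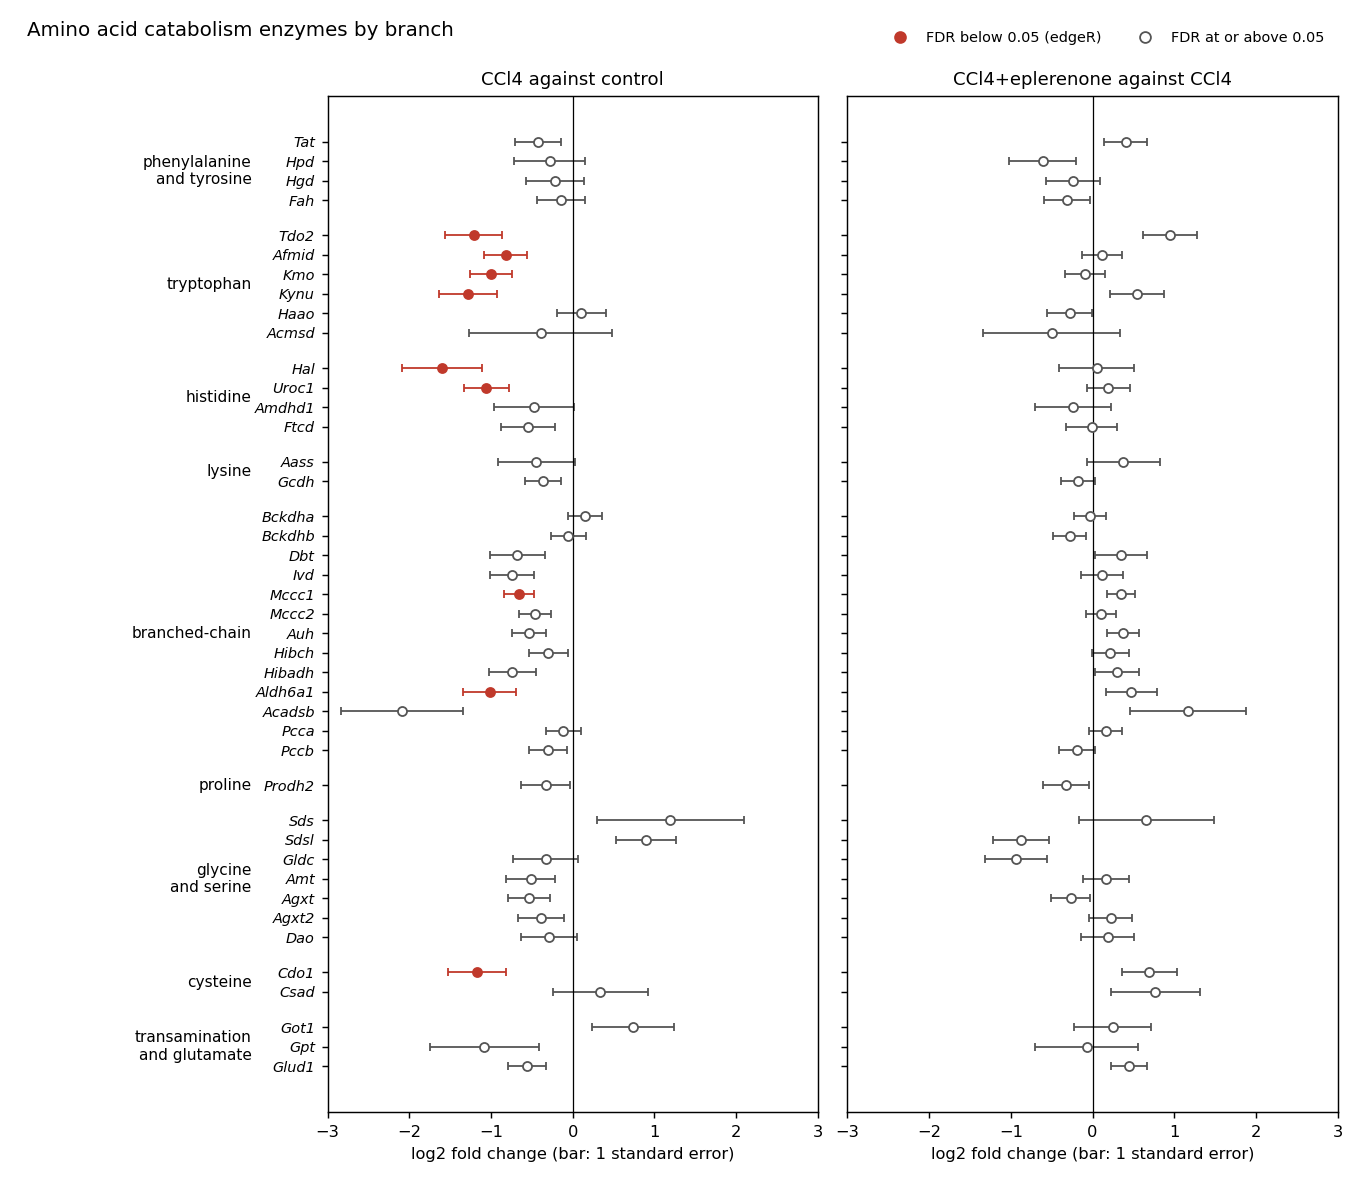
Log2 fold change (x axis) of the 42 enzymes (y axis, grouped by branch) for CCl4 against control on the left and CCl4+eplerenone against CCl4 on the right. Points are edgeR estimates with bars of 1 standard error, derived from the F statistic of the test. Filled points have an adjusted p below 0.05, which 9 enzymes reach on the left, all below 0, and 0 on the right.

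Tryptophan is degraded through kynurenine, and this branch had a median log2 fold change of -0.91, with 4 of 6 members lower. With total counts as the scale 2 were lower, where 2.54% of all genes were. With the CCl4 rats of label prefix 15 only, which is described below, 1 was lower, where 11.3% of all genes were. With those of prefix 20 only 0 were, where 0.328% of all genes were. The 4 enzymes lower over all rats were picked by those calls, and whether they share control was not tested. The 250 bases upstream of their start sites are shown first, 5′ to 3′ on the gene's own strand, from RefSeq's GRCr8 assembly. They lie at chr2:169585587-169585836 (minus strand) for Tdo2, chr10:103544624-103544873 (plus) for Afmid, chr13:90089271-90089520 (plus) for Kmo and chr3:48188036-48188285 (plus) for Kynu. Capitals mark the only motif match found in them, TGGACTTTG in Kmo, which is CAAAGNCCA, a recognition sequence of the hepatocyte factor HNF4, read on the other strand 74 bases upstream of the start.
Tdo2: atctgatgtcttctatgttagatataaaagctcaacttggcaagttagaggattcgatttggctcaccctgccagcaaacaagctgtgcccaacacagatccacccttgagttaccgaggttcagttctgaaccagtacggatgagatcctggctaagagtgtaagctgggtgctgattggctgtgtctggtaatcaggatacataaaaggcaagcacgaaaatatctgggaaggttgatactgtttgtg
Afmid: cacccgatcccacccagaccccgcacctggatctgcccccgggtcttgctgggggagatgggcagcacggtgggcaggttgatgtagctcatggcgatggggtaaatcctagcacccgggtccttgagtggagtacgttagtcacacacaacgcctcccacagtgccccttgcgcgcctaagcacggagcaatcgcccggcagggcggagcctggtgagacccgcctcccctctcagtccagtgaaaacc
Kmo: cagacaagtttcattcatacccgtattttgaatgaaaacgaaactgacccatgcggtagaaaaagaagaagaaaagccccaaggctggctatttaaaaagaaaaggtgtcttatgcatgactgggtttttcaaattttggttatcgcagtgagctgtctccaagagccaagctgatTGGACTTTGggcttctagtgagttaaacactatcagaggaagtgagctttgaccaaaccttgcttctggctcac
Kynu: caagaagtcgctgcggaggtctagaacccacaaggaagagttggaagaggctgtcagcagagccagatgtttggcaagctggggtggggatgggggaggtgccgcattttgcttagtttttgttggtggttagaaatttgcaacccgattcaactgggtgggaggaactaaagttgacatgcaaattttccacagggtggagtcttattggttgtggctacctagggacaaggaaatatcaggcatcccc
Entries were found for 34 of the 44 genes named, among them Aldh4a1, with 35 promoters among 33469 in all. The HNF4 motif stood in 2 of the 35 (Kmo and Agxt2) and in 1.53% of all promoters. An HNF1 motif (GTTAAT and ATTAA, 1 base apart) stood in 1 (Prodh2) and in 0.0448% of all. The element bound by glucocorticoid and mineralocorticoid receptors (GNACA and TGTNC, 3 bases apart) and a C/EBP motif (TTNCGNAA) stood in 0 of the 35, and in 0.373% and 2.13% of all promoters. Of the members called lower in CCl4, Hal and Cdo1 had no entry. Acmsd, Amdhd1, Bckdha, Mccc2, Sds, Sdsl, Gpt and Prodh had none either. These searches covered both strands and only the letters given.

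Tdo2, the oxygenase that opens the tryptophan ring, had 1273, 871, 674 and 612 FPM in control replicates 2 to 5 and 241, 507, 389, 388 and 324 FPM in CCl4 replicates 1 to 5. The 5 CCl4 rats lay below all 4 controls, and the controls ranged widely among themselves. The log2 fold change was -1.21 (SE 0.35, adjusted p = 0.0259, edgeR), which is 2.32-fold lower. Kmo, the kynurenine hydroxylase, had 158, 163, 121 and 164 FPM in control and 75.9, 107, 72.9, 57.4 and 64.2 FPM in CCl4. Every CCl4 rat lay below every control, with a log2 fold change of -1.01 (SE 0.26, adjusted p = 0.0155, edgeR). Kmo was called in all 14 fits that leave out 1 rat. Most of the 9 called members were less stable, as 2 of the 9 stayed called without control replicate 3 and 3 without CCl4 replicate 3. Kynu, which cleaves kynurenine and its hydroxylated form, had 239, 251, 275 and 302 FPM in control and 102, 112, 98.0, 52.1 and 185 FPM in CCl4, where replicate 5 came nearest to control. It was 2.43-fold lower, at -1.28 on the log2 scale (SE 0.35, adjusted p = 0.0218, edgeR). Afmid, the formamidase between Tdo2 and Kmo, was lower by a smaller amount, at -0.82 (adjusted p = 0.0401, edgeR), and its groups overlapped. The later enzymes did not pass the test. Haao, which opens the hydroxyanthranilate ring, had a log2 fold change of 0.11, and Acmsd, which diverts the route from NAD synthesis to full oxidation, had one of -0.39 with an SE of 0.88.

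**Figure D2:**
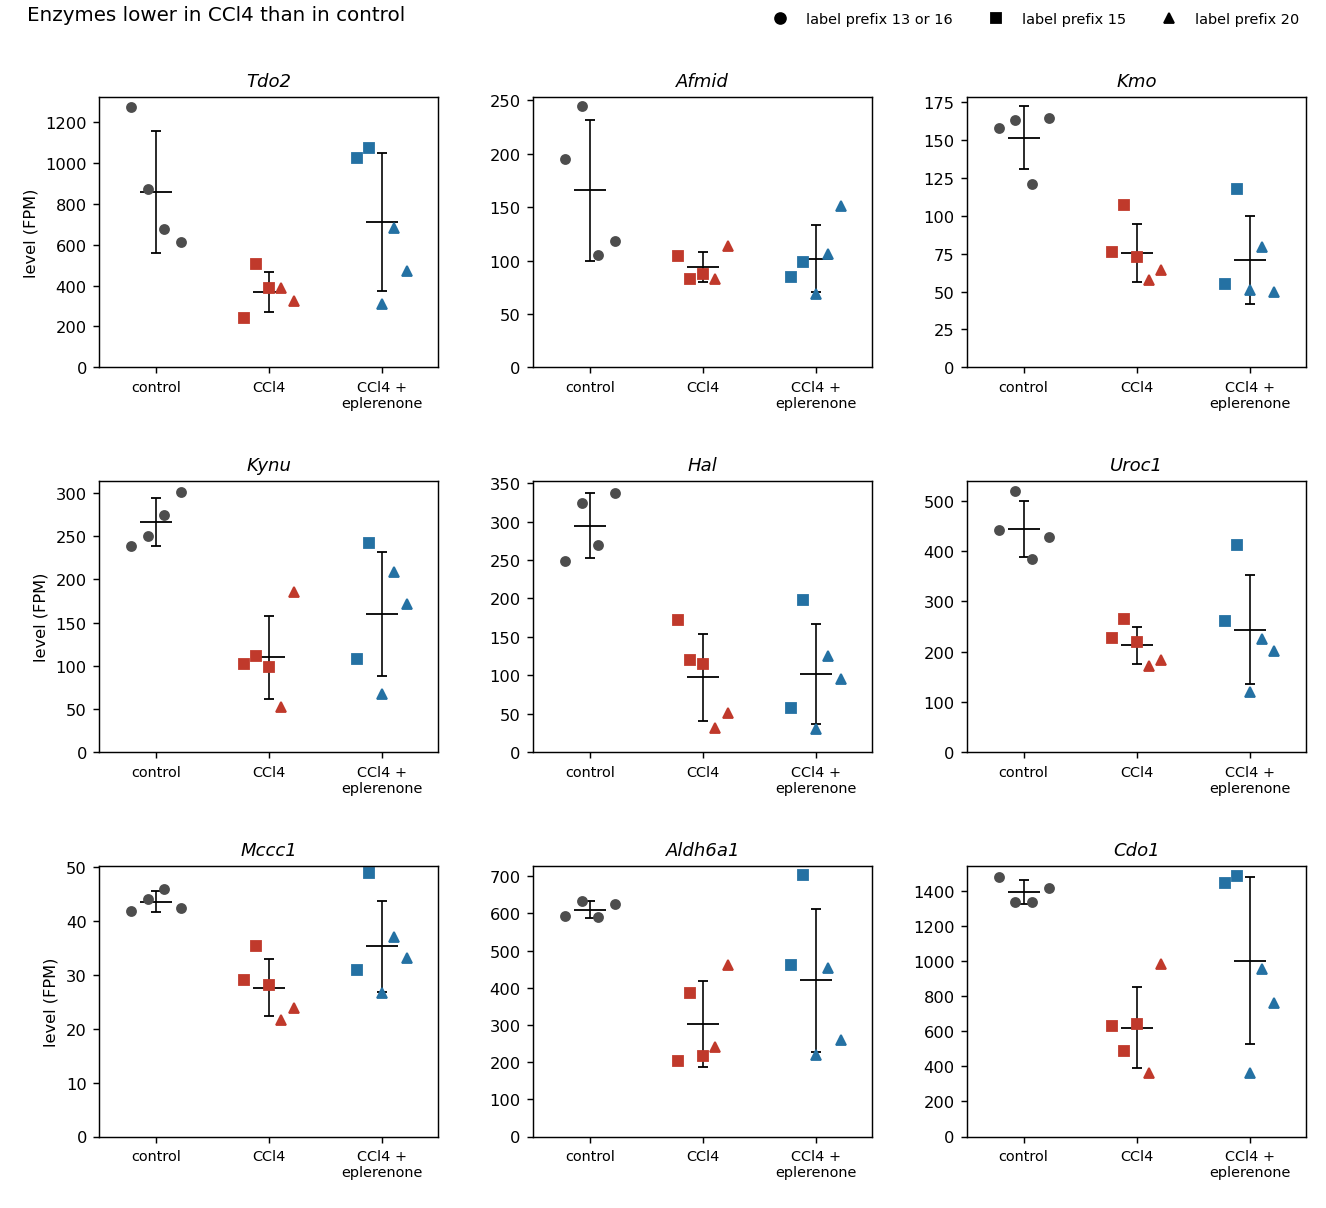
Level in FPM (y axis) in each rat of the 3 groups (x axis) for the 9 enzymes lower in CCl4 than in control. Points are single rats, with shapes for the number that leads the animal label, and the line and bar are the mean and SD; for Kmo, the 5 CCl4 rats lie at 57.4 to 107 FPM and the 4 controls at 121 to 164 FPM.

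In the histidine branch, the first and second enzymes fell and the 2 later ones did not pass the test. With total counts as the scale 2 members were lower, where 2.54% of all genes were. With the CCl4 rats of label prefix 15 only 0 were lower, where 11.3% of all genes were. With those of prefix 20 only 1 was, where 0.328% of all genes were. Hal, the lyase that removes ammonia from histidine, had 248, 325, 269 and 337 FPM in control and 172, 119.5, 114, 30.6 and 51.2 FPM in CCl4. The groups did not overlap, and CCl4 replicates 4 and 5 were the lowest. Its log2 fold change of -1.60 (SE 0.49, adjusted p = 0.0344, edgeR) stood for a 3.03-fold lower level. Uroc1, the urocanase that follows, had 442, 519.9, 385 and 428 FPM in control and 227, 264, 219, 171 and 184 FPM in CCl4. All 5 CCl4 rats lay below all controls, with a log2 fold change of -1.06 (SE 0.27, adjusted p = 0.0164, edgeR). Amdhd1 and Ftcd, which take urocanate products on to glutamate and folate-bound one-carbon units, had log2 fold changes of -0.48 and -0.55.

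Branched-chain amino acids are oxidised in mitochondria, and 12 of the 13 members of this branch had a fold change below 0 (10 with total counts as the scale, and 10 with the CCl4 rats of label prefix 15 only, which is described below), with a median of -0.54 and 2 called. The 2 were in different arms. Mccc1, a subunit of the leucine-specific carboxylase, had 41.7, 44.1, 45.9 and 42.4 FPM in control and 29.1, 35.3, 28.0, 21.5 and 23.9 FPM in CCl4. The controls were tightly spaced and no CCl4 rat reached them (log2 fold change -0.66, SE 0.18, adjusted p = 0.0219, edgeR). Aldh6a1, an enzyme of valine breakdown, had 592, 632, 589.4 and 626 FPM in control and 203, 385, 216, 241 and 462 FPM in CCl4. All CCl4 rats were lower than control, by 1.02 on the log2 scale (SE 0.32, adjusted p = 0.0399, edgeR), with a spread among CCl4 rats wider than among controls. Acadsb, the acyl-CoA dehydrogenase of isoleucine, had a log2 fold change of -2.09, but its SE was 0.75 and its adjusted p was 0.0597 (edgeR); the DESeq2 Wald test gave 0.0391. It had 49.8, 80.3, 38.6 and 77.3 FPM in control and 3.38, 37.4, 2.91, 6.97 and 21.4 FPM in CCl4, so that the groups did not overlap although CCl4 replicate 2 lay close to the lowest control. The 2 subunits of the decarboxylase, Bckdha and Bckdhb, had log2 fold changes of 0.15 and -0.05, while Dbt, its acyl transferase, had -0.68 (adjusted p = 0.155, edgeR). Ivd, the isovaleryl-CoA dehydrogenase of leucine, had -0.74, Mccc2, the other carboxylase subunit, -0.46 and Auh, the hydratase after it, -0.54. In the valine arm Hibch, a hydrolase, had -0.30 and Hibadh, a dehydrogenase, -0.74. Pcca and Pccb, the subunits of propionyl-CoA carboxylase where the valine and isoleucine arms meet, had -0.12 and -0.30. In all, 7 of the 13 did not overlap between control and CCl4 and were lower in CCl4, as were 13 of the 42 members; 9.03% of all genes tested were lower without overlap.

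Cdo1, the dioxygenase that turns cysteine into its sulfinate, was the called member of the cysteine branch. Control rats had 1481, 1336, 1339.9 and 1416 FPM and CCl4 rats 629, 485, 643, 364 and 982 FPM. The groups did not overlap and the log2 fold change was -1.17 (SE 0.36, adjusted p = 0.033, edgeR). Csad, which follows it on the way to taurine, ranged widely, with 47.9 to 935 FPM in CCl4 rats against 177 to 334 FPM in control.

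In the other 5 branches no member passed the test. Of phenylalanine and tyrosine, all 4 members had a fold change below 0 and a median of -0.25, but with total counts as the scale 2 were below 0, and with the CCl4 rats of label prefix 15 only 1 was, with a median of 0.12, against -0.80 and 4 below 0 with those of prefix 20 only. Tat, the first enzyme of tyrosine breakdown, had 509, 1453, 990.0 and 848 FPM in control and 586, 679.9, 666, 767 and 829 FPM in CCl4, and its groups overlapped (log2 fold change -0.43, SE 0.28, adjusted p = 0.269, edgeR). Gcdh, the glutaryl-CoA dehydrogenase of lysine and tryptophan breakdown, had 417, 346, 289 and 311 FPM in control and 274, 268, 293, 211 and 278 FPM in CCl4 (log2 fold change -0.36, adjusted p = 0.237, edgeR). It also overlapped. Hpd, Hgd and Fah, which carry tyrosine on through homogentisate to fumarate, had log2 fold changes of -0.28, -0.22 and -0.15, and Aass, the first enzyme of lysine breakdown, had -0.44.

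Prodh2, the dehydrogenase of hydroxyproline, had 161, 191, 203 and 149 FPM in control and 179, 124, 233, 70.2 and 93.7 FPM in CCl4, with a log2 fold change of -0.33 (adjusted p = 0.424, edgeR). CCl4 replicate 3 was above every control and replicates 2, 4 and 5 below all of them. Prodh1 had 362, 372, 211 and 206 FPM in control and 184, 137, 170.0, 43.7 and 95.8 FPM in CCl4. Its groups did not overlap, but its adjusted p was 0.0578 in edgeR and 0.0267 in DESeq2, with a log2 fold change of -1.19 (SE 0.42). Glud1, the glutamate dehydrogenase, had 956, 1043, 682 and 919 FPM in control and 593, 554, 691, 475 and 742 FPM in CCl4. The groups overlapped in control replicate 4, and the log2 fold change was -0.56 (SE 0.23, adjusted p = 0.0944, edgeR). Gpt, alanine aminotransferase, had -1.08 (SE 0.67) and Got1, the cytosolic aspartate aminotransferase, 0.74 (SE 0.50), both with groups that overlapped.

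Of the 7 glycine and serine enzymes, Sds and Sdsl, which deaminate serine, were the 2 with a fold change above 0. Sdsl had 23.8, 19.4, 18.7 and 19.2 FPM in control and 52.3, 32.2, 69.0, 22.6 and 12.3 FPM in CCl4. CCl4 replicates 1 to 3 were above all controls and replicate 5 below them. Its log2 fold change was 0.89 (SE 0.36, adjusted p = 0.0893, edgeR), and the adjusted p was 0.0499 in the DESeq2 Wald test, which called 12 members in all, 11 lower (also Acadsb and Ivd) and 1 higher, where 27.8% of all genes were called, 9.93% lower and 17.9% higher. Gldc, the glycine decarboxylase, had a log2 fold change of -0.33 with an SE of 0.40. Amt, another part of the glycine cleavage system, had -0.52, the glyoxylate aminotransferases Agxt and Agxt2 had -0.54 and -0.39, and the D-amino acid oxidase Dao had -0.29. Sds itself had 1.19 with an SE of 0.90.

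Genes of the same pathways outside the set were taken from a list of 49, of which 46 were tested. In CCl4 against control, 8 were lower (Hsd17b10, Mcee, Hao1, Qdpr, Asrgl1, Dhtkd1, Aadat and Dmgdh) and 1 was higher, with a median of -0.52. The 9 made up 19.6% of the list, near the 20.2% of all genes called, and the 8 made up 17.4%, beside 6.71% of all genes lower. Qdpr, which recycles the cofactor of phenylalanine hydroxylase, had the log2 fold change -1.21 (adjusted p = 0.0195, edgeR), and Aadat, a kynurenine aminotransferase, had -0.97 (adjusted p = 0.0408, edgeR). Bcat1, the cytosolic branched-chain aminotransferase, known mainly from brain, was the gene that rose. It had 0.121 FPM in 1 control and 0 in the other 3, and 0.536 to 1.78 FPM in the 5 CCl4 rats, which remained a low level.

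With eplerenone, 0 of 42 members were called between CCl4+eplerenone and CCl4 by edgeR, where 0.0139% of all genes were called, and 0 by DESeq2, where 0.513% were. At an unadjusted p below 0.05 in edgeR there were 3, Tdo2, Sdsl and Gldc, and 14.4% of all genes. The median log2 fold change was 0.14. No member separated the 2 groups without overlap, where 0.964% of all genes did.

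Tdo2 had 1024, 1075, 309, 680.5 and 469 FPM in CCl4+eplerenone replicates 1 to 5, and 3 of the 5 were above every CCl4 rat, which reached 507 FPM. Its log2 fold change against CCl4 was 0.94 (SE 0.33, adjusted p = 0.312, edgeR). Cdo1 had 1448, 1489, 362, 954 and 761 FPM, with replicate 1 in the range of control, replicate 2 just above it and replicate 3 at the level of the lowest CCl4 rat, and its log2 fold change was 0.69 (SE 0.34, adjusted p = 0.354, edgeR). Mccc1 had 30.8, 48.8, 26.6, 36.9 and 33.1 FPM, a log2 fold change of 0.35 (SE 0.17, adjusted p = 0.354, edgeR). Replicate 2 was above every control for Cdo1 and Mccc1, and replicate 3 was the lowest of the group for all 3 enzymes.

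Sdsl and Gldc lay on the other side. Sdsl had 24.0, 21.2, 16.15, 16.5 and 24.9 FPM in CCl4+eplerenone, close to the controls, against CCl4 replicates that ranged from 12.3 to 69.0 FPM (log2 fold change -0.87, SE 0.34, adjusted p = 0.316, edgeR). Gldc had 39.4, 71.5, 63.8, 70.3 and 33.4 FPM, below the controls at 104 to 170.0 FPM, where CCl4 rats spanned 33.4 to 215 FPM (log2 fold change against CCl4 -0.94, SE 0.38, adjusted p = 0.316, edgeR). With CCl4 replicate 5 and CCl4+eplerenone replicate 3 left out, so that 4 rats a group remained, 6 members were called, Tdo2, Kynu, Csad, Auh and Cdo1 higher and Sdsl lower, with 9.16% of all genes called (4.46% higher and 4.7% lower). These 2 rats are the ones missing from the group means of a gene list of the study, found by matching means and not from a label, and why they were left out is not given in the sources used here. For Cdo1, CCl4 replicate 5 was the highest of its group and CCl4+eplerenone replicate 3 the lowest of its own, so that leaving them out widens the difference.

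Against control, CCl4+eplerenone livers had 1 called member, Kmo, which was lower, where 5.22% of all genes were called, 0.895% lower and 4.33% higher. Kmo had 55.3, 118, 50.8, 79.7 and 49.7 FPM and its log2 fold change was -1.10 (SE 0.26, adjusted p = 0.0228, edgeR), beside -0.10 (SE 0.24) against CCl4. The CCl4+eplerenone rats all lay below the controls, as the CCl4 rats did. Kmo was no longer called without control replicate 2, 3 or 5, or without CCl4+eplerenone replicate 1, 3 or 5. DESeq2 called 5 members lower (Kmo, Hal, Uroc1, Gldc and Agxt), with 2.12% of all genes lower and 10.6% called in all. In 6 members (Kmo, Hal, Pccb, Prodh2, Gldc and Agxt) every CCl4+eplerenone rat lay below every control, as in 4.46% of all genes, and in 1 (Csad) every rat lay above, as in 6.42%. The median log2 fold change of the 42 was -0.45, as for CCl4, with both comparisons sharing the same control samples; scaling to total counts moved the median of all genes by 0.32 and that of the members to -0.20, and turned the sign of 8 members. The hepatocyte markers had a median of -0.49 in this comparison, with 6 of 8 below 0. Hal was 2.92-fold lower and Uroc1 1.82-fold lower, with adjusted p = 0.0815 and 0.081 in edgeR. Tdo2 was at -0.27 (adjusted p = 0.743), Aldh6a1 at -0.54 (adjusted p = 0.383) and Cdo1 at -0.47 (adjusted p = 0.505).

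**Figure D3:**
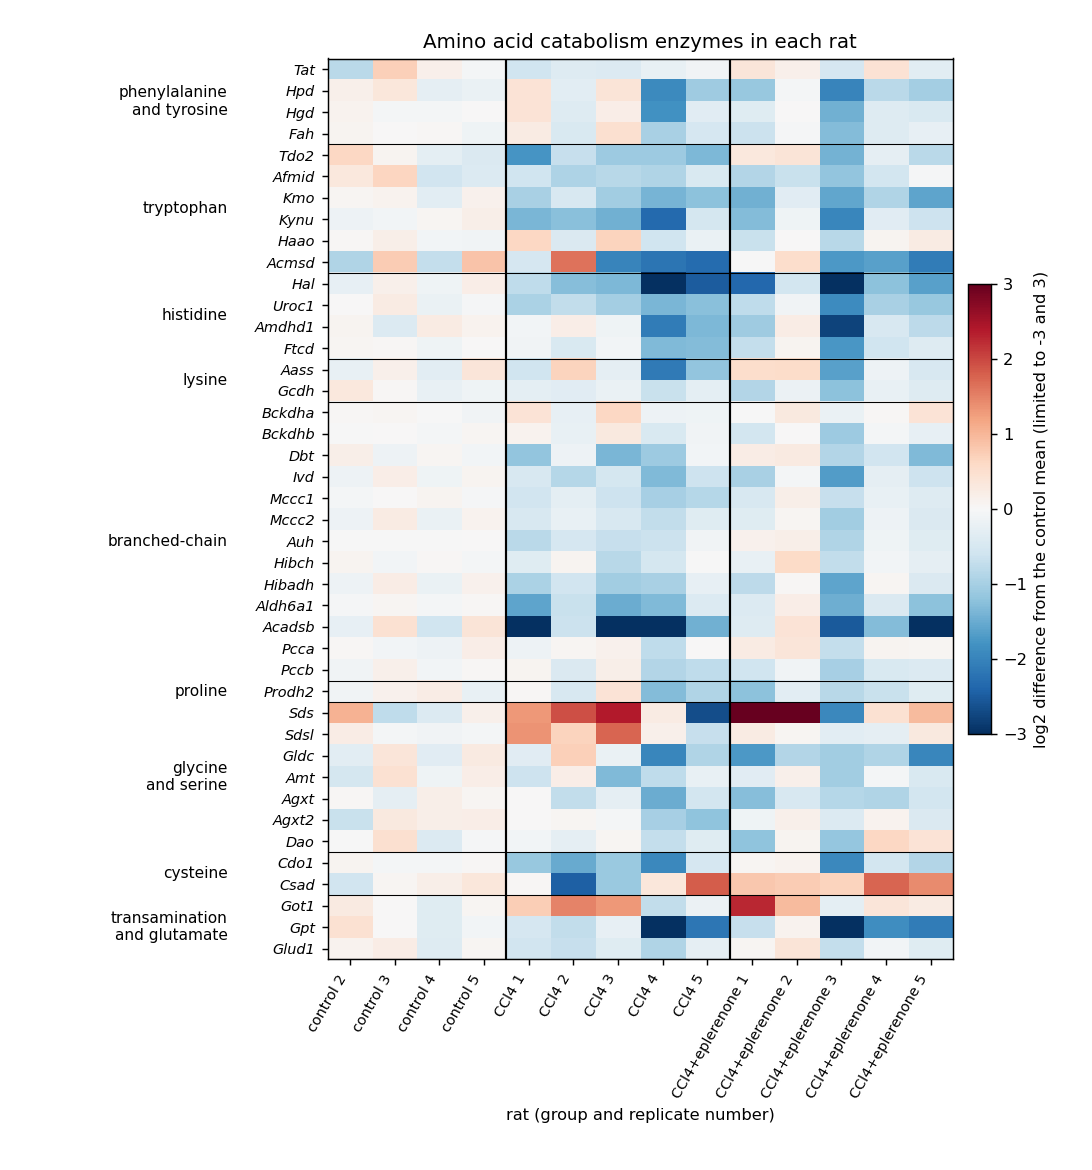
Log2 difference of each rat from the control mean (colour, blue lower and red higher, limited to -3 and 3) for the 42 enzymes (rows, by branch) in the 14 rats (columns, by group and replicate). CCl4 replicate 4 and CCl4+eplerenone replicate 3 are blue in nearly every row, with 38 of the 42 enzymes below the lowest control in each, and CCl4+eplerenone replicate 2 is close to control, with 7. Levels are on the TMM scale only. The factors of CCl4 replicate 4 and CCl4+eplerenone replicate 3 (1.21 and 1.40, against 0.847 to 0.877 in control) lower all their genes.

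Rats of the same group differed in how far the whole set was below control. The median difference from the control mean over the 42 enzymes was -0.41, -0.41, -0.32, -0.998 and -0.51 in CCl4 replicates 1 to 5, and -0.44, 0.09, -1.18, -0.28 and -0.43 in CCl4+eplerenone replicates 1 to 5. Between 19 (CCl4 replicate 3) and 38 (CCl4 replicate 4) members lay below the lowest control in CCl4 rats, and between 7 (replicate 2) and 38 (replicate 3) in CCl4+eplerenone rats. Gpt, for example, ranged from 16.8 FPM in CCl4 replicate 4 to 336 FPM in CCl4+eplerenone replicate 2. In FPM, CCl4+eplerenone replicate 3 also had the lowest summed hepatocyte markers (110020 FPM) of the 14 libraries. CCl4 replicate 4 had the lowest of its group (141352 FPM). The part of the markers in these levels was not tested. FPM are divided by the TMM factors, which were 1.40 and 1.21 in these 2 rats, the highest of their groups, and 0.847 to 0.877 in control. A higher factor lowers every gene of its rat, so both rankings and the medians per rat depend on this scale. The values per rat were not repeated with total counts.

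The sample labels carry a number that leads the animal label, 15 or 20 in the CCl4-treated rats, whose meaning the labels do not give. It is 13 or 16 in control, so that it cannot be told apart from CCl4 in comparisons with control. Among the 10 CCl4-treated rats, with treatment as a term, 0 members were called between the numbers, where 0.0763% of all genes were, and 38 of the 42 had a fold change below 0 in prefix 20, with a median of -0.44 against 0.01 over all genes and -0.06 over the hepatocyte markers. An unadjusted p below 0.05 in edgeR was found for 15 members, or for 5.53% of all genes. This contrast was added after the values had been seen. Gpt had 218, 186, 259.8, 192 and 336 FPM in the 5 rats of prefix 15 and 16.8, 68.4, 26.8, 85.1 and 72.6 FPM in the 5 of prefix 20. Those ranges did not overlap and the log2 fold change was -2.24 (SE 0.42, adjusted p = 0.0897, edgeR). Got1 had 305, 508, 452, 869 and 351 FPM in prefix 15 and 108, 160.1, 148, 232 and 217 FPM in prefix 20, again without overlap (log2 fold change -1.63, SE 0.29, adjusted p = 0.0875, edgeR). Sds was the third member without overlap, with 239.9 to 816 FPM in prefix 15 and 15.1 to 187 FPM in prefix 20; 0.666% of all genes lay lower in prefix 20 in this way. All 4 histidine enzymes had an unadjusted p below 0.05, with a median of -0.997, and Csad was the member that stood highest in prefix 20, at 1.33 (adjusted p = 0.719, edgeR).

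Between CCl4 and control, the 3 CCl4 rats of prefix 15 alone gave a median of -0.32, with 28 of the 42 below 0. Of the members 4 were lower and 1 was higher (11.9%), where 11.3% of all genes were lower, 15.8% higher and 27.0% called in all. The 2 CCl4 rats of prefix 20 gave a median of -0.80, with 41 of the 42 below 0. Here 2 members were lower (4.76%), where 0.328% of all genes were lower, 2.39% higher and 2.72% called in all. The median for CCl4+eplerenone against CCl4 was 0.21 within each prefix, beside 0.015 over all genes in prefix 15 and 0.010 in prefix 20. Within either prefix 0 members were called, where 0.607% of all genes were called in prefix 15 and 0% in prefix 20. The members behind the median differed. Within prefix 20 the sign of 19 of the 42 differed from that over all rats, and within prefix 15 that of 4. The cysteine branch had a median of 1.49 within prefix 15 and 0.08 within prefix 20, the glycine and serine branch -0.33 and 0.22, and the phenylalanine and tyrosine branch -0.36 and 0.20. Sdsl, at -0.87 over all rats, was at 0.15 within prefix 20, and Gldc, at -0.94, was at 0.14. The interaction of treatment and prefix was called for 0 members and 0 of all genes in edgeR, with an unadjusted p below 0.05 for 6 members and 12.1% of all genes, so a difference of the eplerenone effect between the numbers was not shown.

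**Figure D4:**
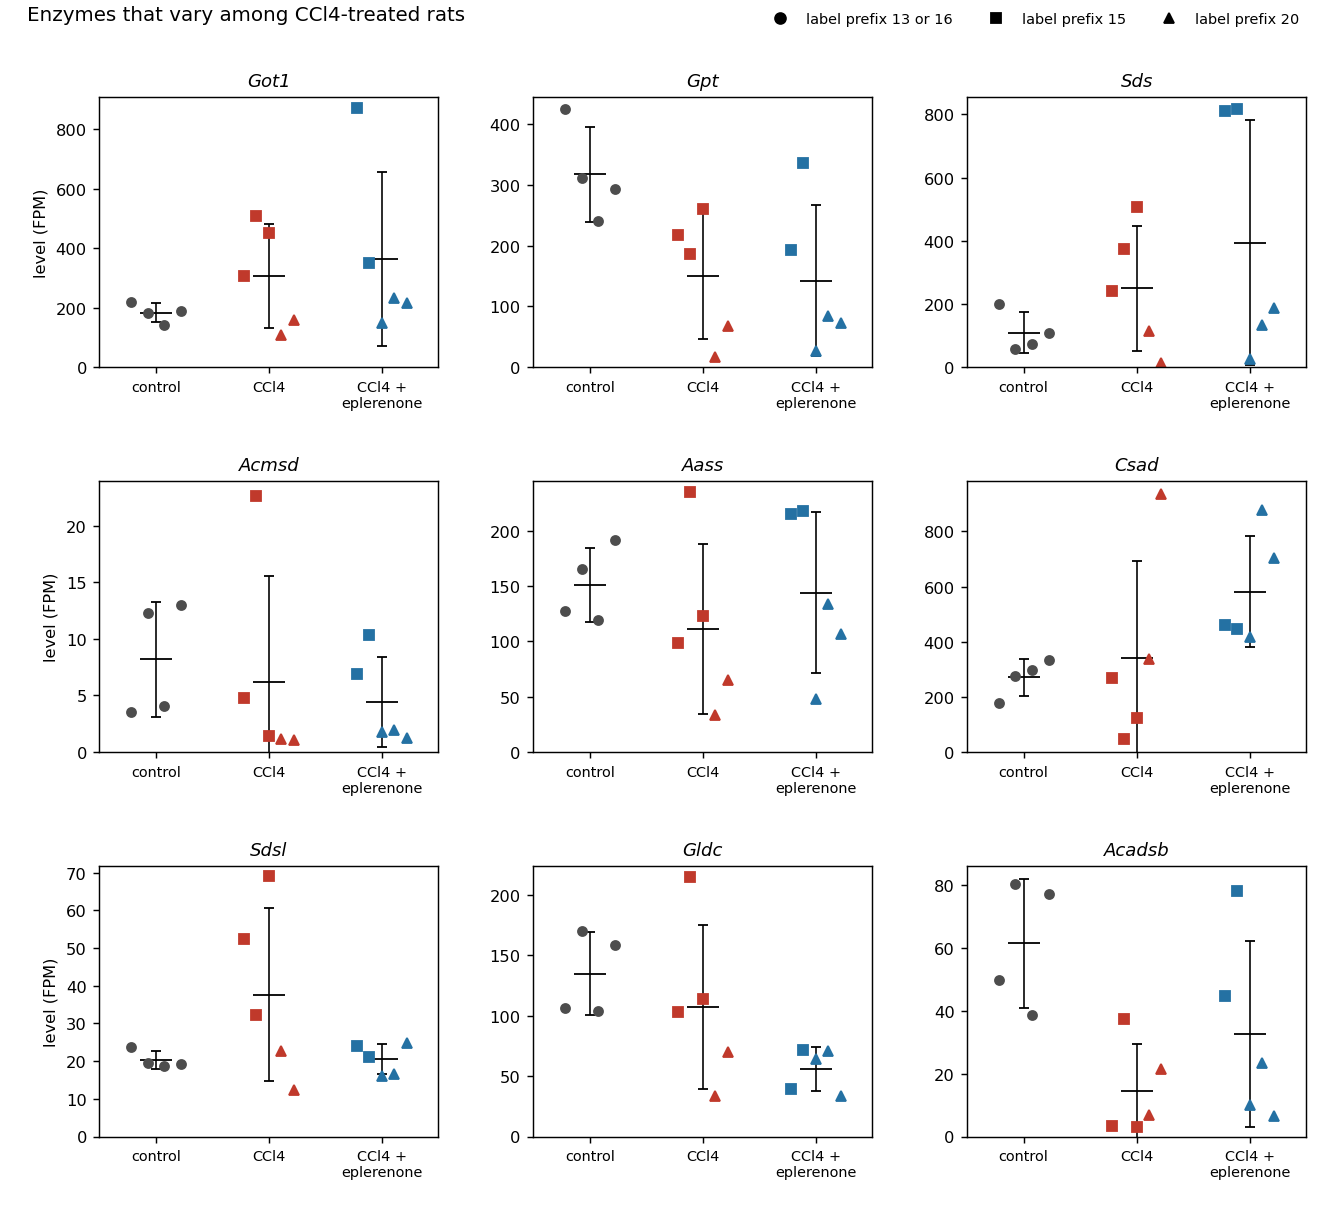
Level in FPM (y axis) in each rat of the 3 groups (x axis) for 9 enzymes that varied among CCl4-treated rats, chosen after the values were seen. Squares are rats of label prefix 15, triangles rats of prefix 20 and circles controls, with the mean and SD (bars are limited at 0); for Gpt, squares lie at 186 to 336 FPM and triangles at 16.8 to 85.1 FPM.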

How the data were processed

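Livers of rats from 3 groups were compared by RNA sequencing, with 14 sample columns in use and 0 columns left unmapped. Poly(A) RNA was sequenced by the authors in pairs of 150 bp reads, which they aligned to rn6 with HISAT2 2.1.0 and counted over exons with featureCounts 2.0.0, multi-mapping reads counted at each place; gene symbols came from Ensembl archive 101. Whether counting used strand is not given in the sources used here. The deposited table holds raw counts per gene, with no normalization. Members with near-identical copies may hold reads of those copies.

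A single fit over all groups used the quasi-likelihood test of edgeR 4.0.16 under R 4.3.3, with TMM library sizes and filterByExpr at a smallest count of 10. Benjamini-Hochberg adjustment covered 14417 genes, and an adjusted p below 0.05 was called. Total counted reads ranged from 16157491 to 21574767, and the floor levels in FPM cover counting error only. Standard errors were derived from the F statistic of the quasi-likelihood test. Like its p-values, they include the spread between rats. Alternatives were DESeq2 1.42.0, other scaling and filters, the 2 groups alone, 4 rats per group, a replicate block, fits by label prefix and each rat left out in turn; the steps were tested on simulated data. Differences from the control mean used log2 of FPM plus 0.5. Promoter motifs were searched in the 250 bases upstream of RefSeq (GRCr8) start sites.

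Samples were grouped by treatment as the labels give it. They are different rats, and p-values measure the spread between them. The members and lists were chosen with earlier results of these data known. All members may be named; values in every rat are given, per branch, for up to 3 called members with the smallest p between CCl4 and control (or, where none is called, the 1 with the smallest p) and for the 5 members with the smallest p between CCl4+eplerenone and CCl4, and up to 10 called genes of the other list are named. Acadsb, Prodh1, Csad and the members described by label prefix were named beyond that rule after their values were seen.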

Additional observations from a re-analysis of the deposited data

Results flagged for a closer look

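In 5 of the 126 groups of values checked (42 members in 3 groups), 1 rat stood apart from the others of its group by Dixon's criterion, where chance gives about 1 in 20. Kmo was lowest in control replicate 4, at 121 FPM, with the nearest control at 158 FPM. Acmsd was highest in CCl4 replicate 2, at 22.7 FPM, with the nearest at 4.77 FPM. Sdsl was highest in control replicate 2, at 23.8 FPM, with the nearest at 19.4 FPM. Agxt2, a mitochondrial aminotransferase, was lowest in control replicate 2, at 100.7 FPM, with the nearest at 182 FPM. Got1 was highest in CCl4+eplerenone replicate 1, at 869 FPM, with the nearest at 351 FPM.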

How the results depend on the processing

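For CCl4 against control, the count of 9 members became 16 with 4 rats per group, 5 with the CCl4 rats of prefix 15 only and 2 with those of prefix 20 only, and lay between 2 and 13 when 1 rat was left out. For the other catabolism genes it was 3 with prefix 20 only and 3 to 12 with 1 rat left out. For CCl4+eplerenone against CCl4, 4 rats per group gave 6 members and 3 other genes in place of 0. The share of all genes called there was 9.16%, in place of 0.0139%. For CCl4+eplerenone against control, the 1 member became 5 with DESeq2 and 4 with the 2 groups alone, and was 0 to 3 with 1 rat left out; the other genes numbered 5 with DESeq2, 0 with the replicate block and 1 to 7 with 1 rat left out. Prodh2 turned to 0.021 with prefix 15 only, and Sdsl to -0.19 with prefix 20 only against control; within prefix 20, Sdsl was 0.15 and Gldc 0.14 for eplerenone. Over all members, the sign differed from the reported one for 10 of 42 with prefix 15 only and 5 with prefix 20 only against control, and for 19 within prefix 20 and 4 within prefix 15 for eplerenone. The cause was not tested. The share called over all genes also moved. For CCl4 against control it was 34.2% with 4 rats per group, 27.0% with prefix 15 only and 2.72% with prefix 20 only. With 1 rat left out it was 9.26% to 32.1%, beside 20.2% over all rats. The members' medians kept their sign for both comparisons with control under every alternative run, and for eplerenone ranged from -0.01 to 0.27. Deviations of same-numbered rats were weakly correlated (from -0.33 to 0.19), so a pairing by number was not seen, though these values cannot exclude one. CCl4 replicates 4 and 5 matched the control of the same number best (0.084 and 0.187). With the replicate block, 6, 0 and 1 members were called in the 3 comparisons, all of them lower. Of all genes, 12.1%, 0% and 1.87% were called with that block, with 3.69%, 0% and 0.264% lower. At these depths Bcat1 lay below the level that 3 counts stand for in the control rats and above it in the CCl4 rats. The lowest value of a member was 1.01 FPM, for Acmsd.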

Other observations

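Genes of the same pathways outside the set also differed by label prefix among the 10 CCl4-treated rats. Of the 46 tested, 39 had a fold change below 0 in prefix 20, with a median of -0.36, and 1 was called, Gls2, the liver-type glutaminase, at -1.86 (SE 0.27, adjusted p = 0.0366, edgeR). Prodh1 had -1.25 (SE 0.26, adjusted p = 0.134, edgeR) and no overlap between the prefixes. These genes were named after their values were seen.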
